A study of Mus musculus with 3 samples.

Results

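The cells described here are Cytl1-high cells of a mouse embryo at E15.5, a stage counted in days of embryonic development, 4262 of the 195915 cells kept in that section. Membership was set by the counts of 9 genes. A member had at least 10 counts of panel genes, at least 2 counts of Cytl1, at least 4 counts over Cytl1, Mgp, Cthrc1 and P4ha3 together, and fewer than 2 counts over the endothelial genes Pecam1, Cdh5, Kdr, Emcn and Cldn5. Such cells made up 2.18% of kept cells (exact Clopper-Pearson 95% interval 2.11% to 2.24%), and the other 191653 kept cells of the section were the comparison.

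Whole embryos were cut sagittally and read by MERFISH, an imaging method in which each RNA molecule is named, where it lies in the tissue, by the pattern of fluorescent signals it gives over successive hybridisations. The E15.5 section came from 1 wild-type embryo, and the sections at E9.5 came from 2 further wild-type embryos. The labels name no treatment and no engineered allele. Of 219525 segmented cells at E15.5, 89.2% had at least 10 counts of the 296 panel genes, with 21227345 counts in all and a median of 84 per cell; the E9.5 sections held 830 and 6334 kept cells. With 1 section at E15.5 there is no replicate, so no test was made: intervals beside shares and folds cover counting error only, and cells of 1 section share its embryo, staining and imaging.

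Cartilage is a tissue of chondrocytes set in a matrix of collagen fibres and proteoglycans, formed where mesenchymal cells condense and begin to make that matrix. Most of the embryonic skeleton is first laid down as cartilage, wrapped in a fibrous perichondrium and, until blood vessels enter it, free of vessels. Cytl1 is a small secreted protein known from chondrocytes, and Mgp, matrix Gla protein, is a secreted inhibitor of calcification made by chondrocytes and by arterial smooth muscle.

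The cartilage identity could not be checked with genes outside the rule. Of 30 cartilage genes listed for the purpose, Cytl1 and Mgp were the 2 that the panel counted, and both are in the rule; Col2a1, Acan, Sox9, Matn1, Comp and Hapln1 were not counted here. None of 10 skeletal muscle genes was counted either. The cells are therefore called by their leading gene.

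Among the genes of the rule, Cytl1 had a lowest, median and highest count of 2, 3 and 24 per member, and members held 64.2% of all Cytl1 counts of the section. P4ha3, a subunit of the enzyme that hydroxylates prolines of collagen, had 0, 2 and 23 counts and was found in 84.7% of members. Cthrc1, a secreted protein with a short collagen-like repeat, had 0, 1 and 17 counts and was found in 71.5% of members. Mgp had 0, 1 and 19 counts and was found in 52.0% of members (50.5% to 53.6%). Members held 19.8% of the P4ha3 and 20.3% of the Mgp counts, so most molecules of both lay in other cells. Mean counts per cell were 4.22 Cytl1, 3.12 P4ha3, 1.64 Cthrc1 and 1.03 Mgp in members, against 0.0523, 0.281, 0.155 and 0.0896 in other cells. These values follow from how the cells were chosen and support nothing by themselves.

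Cytl1 is low outside the members. Among 21165 other cells with at least 10 counts of the neuronal gene Stmn2, 1.92% had a Cytl1 count and 3.83% had an Mgp count. Their median depth was 144 counts per cell. Of members, 100% had Cytl1 and 52.0% had Mgp, at a median of 185. A blank code, a barcode given to no gene, averaged 398 counts over the 21165 cells. Cytl1, at a mean of 0.0201 per cell, came close to that level there, so its share does not show presence in these cells. Members were deeper than the other cells, with medians of 185 and 82 counts, and larger, with medians of 797 and 635 volume units. When each cell was thinned to 50 counts, Mgp was found in 22.4% of the 4227 members deep enough, against 3.75% of 20000 other cells drawn at random.

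At the edges of the rule, 1345 members had exactly 2 Cytl1 counts, and 1808 cells just outside had 1 Cytl1 count with the other conditions met. Col15a1 stood at 76.4 per 10000 counts in the first set and 55.1 in the second, and Fbln2 at 133 and 111. The 452 members with a sum of exactly 4 had 74.9 Col15a1 and 92.0 Fbln2 per 10000, and 652 cells with at least 2 Cytl1 counts but a sum of 2 or 3 had 51.7 and 78.7. The endothelial limit removed 177 cells, 3.99% of those past the other conditions, and 15 of them met the definition of a vessel cell used below. Cells just outside the rule were lower in both genes than those just inside, and higher than the average of all other cells, 19.1 for Col15a1 and 41.7 for Fbln2.

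Applied to the younger embryos, the same rule found 1 of 6334 kept cells in the second E9.5 section (0.0158%, interval 0.000400% to 0.0879%) and 0 of 830 in the first, which allows a share of up to 0.361% when 3 counts are taken as the limit of a count of 0 and 0.443% by the exact interval. Cytl1 had 27995 counts at E15.5, against 6 and 101 at E9.5. A blank code, a barcode given to no gene, averaged 3385 counts at E15.5, against 16.4 and 154 at E9.5, so Cytl1 at E9.5 was below what an unassigned code gave.

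**Figure D1:**
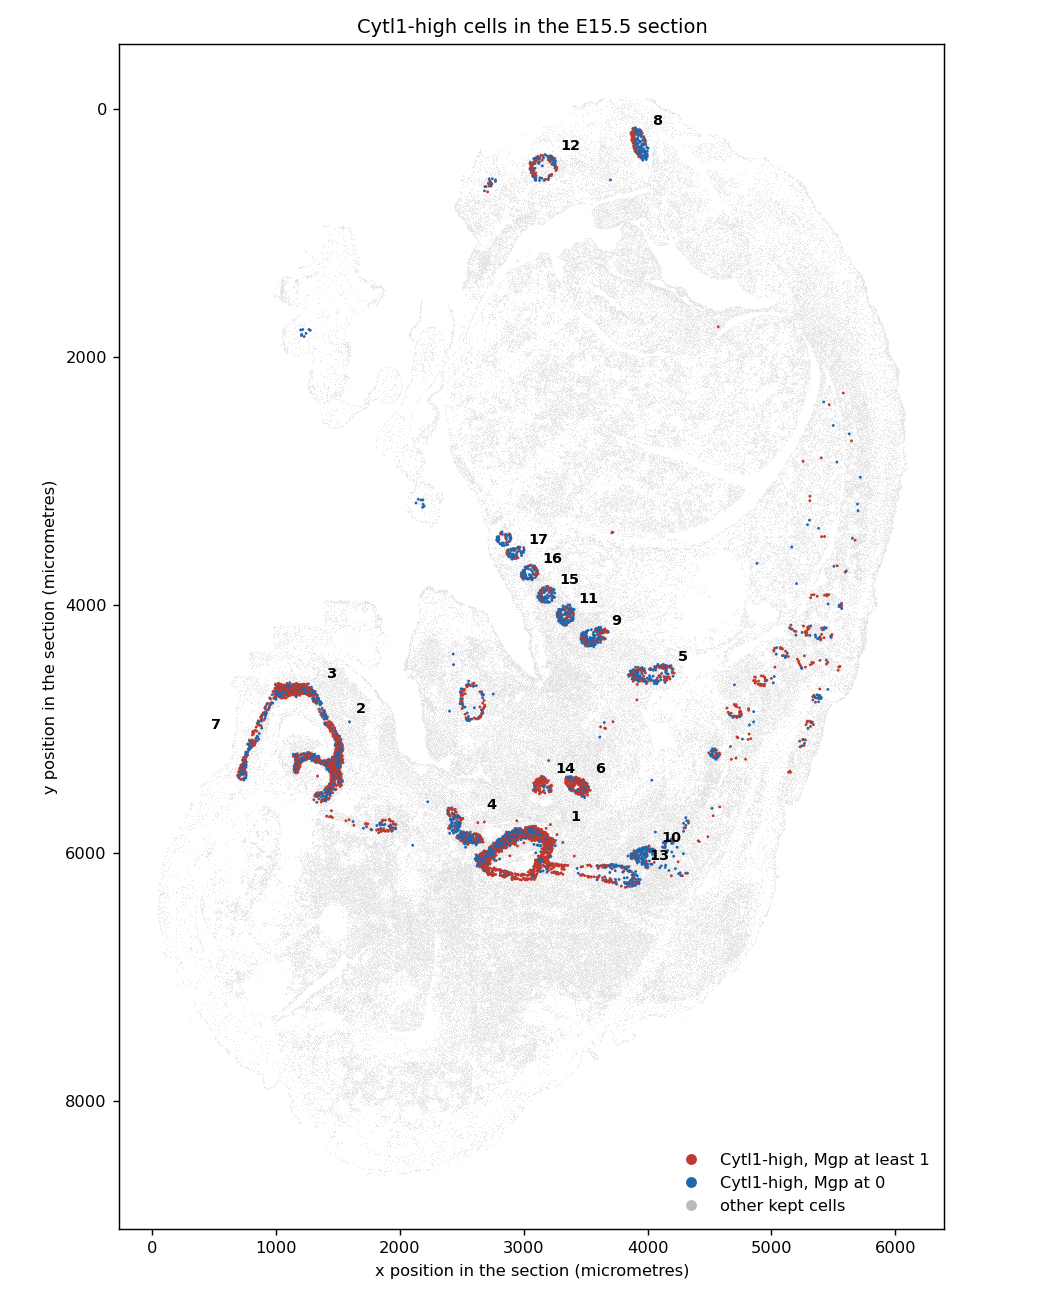
Positions of the 4262 Cytl1-high cells in the E15.5 section, in micrometres along both axes, coloured by Mgp (red, at least 1 count; blue, 0 counts) over all other kept cells in grey. Numbers mark the 17 patches of at least 50 members, which form rings, arcs, bands and a row of small discs and hold 85.8% of members.

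Cytl1-high cells lay in compact patches with little between them. Joined wherever centres were within 30 micrometres, they formed 168 groups: 93 single cells, 58 patches of 2 to 49 members and 17 patches of at least 50. The 17 held 3656 members, 85.8% of all, and the 2 largest held 991 and 665. A member had a median of 8 members among its 20 nearest kept cells, against 0 for other cells, and 90.1% of members had at least 3, against 3.56% of other cells. A median of 96 kept cells lay within 50 micrometres of a member, against 66 for other cells and 88 for the Stmn2 cells, while the nearest kept cell was 7.45 micrometres away for members and 7.40 for other cells.

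The patches differed in size and in form. The largest, patch 1, spanned 749 by 436 micrometres as an irregular ring, patches 2, 3 and 7 made 1 curved band, and patches 9, 11, 15, 16 and 17 followed each other as a row of small discs, the smaller of them under 150 micrometres wide. Positions were not matched to named bones or organs. Patches of 1 embryo share its RNA and imaging and are not replicates.

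Of the 287 panel genes outside the rule, 10 were at least 2-fold higher in Cytl1-high cells than in other cells (3.48%) and 120 were at least 2-fold lower (41.8%). Levels are counts per 10000 counts of those 287 genes. The median gene stood at 0.58 of its level in other cells. H19 alone took 3026 of every 10000 counts in members, against 1363 in other cells. With H19 left out of the total, a choice made after seeing the data, the split was 19 higher and 97 lower. Per unit of cell volume it was 25 higher and 84 lower.

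Of the 3 genes with the highest ratios, 2 encode matrix proteins. Col15a1, a collagen of basement membrane zones, had 85.8 per 10000 in members and 19.1 in other cells, a 4.49-fold difference (exact Poisson interval 4.37 to 4.60). Fbln2, fibulin 2, a glycoprotein of elastic fibres and basement membranes, had 158 in members and 41.7 in other cells, 3.79-fold (3.72 to 3.86). Proser2 had 36.8 in members and 10.4 in other cells, 3.54-fold (3.40 to 3.68). The section was also divided into tiles of 1000 micrometres. All 3 genes were higher in members in 16 of the 16 tiles that held at least 50 members, with 0.5 counts added on both sides.

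The other 7 genes past 2-fold were of several kinds. Klf4, a zinc-finger transcription factor, was 2.71-fold higher, with 60.5 in members and 22.4 in other cells. Adgrg6, an adhesion G protein-coupled receptor, was 2.42-fold higher, with 43.4 and 17.9. Bgn, biglycan, a small leucine-rich proteoglycan, was 2.40-fold higher, with 76.0 and 31.7. Fstl1, a secreted glycoprotein that binds ligands of the TGF-beta family, was 2.32-fold higher, and 1.97-fold higher without the largest patch. Fn1, fibronectin, was 2.29-fold higher, with 589 in members and 257 in other cells. H19, an imprinted long non-coding RNA, was 2.22-fold higher, and Itm2a, a transmembrane protein, was 2.05-fold higher. H19 was higher in members in all 16 tiles, Bgn, Fn1 and Itm2a in 15, Fstl1 and Klf4 in 14, and Adgrg6 in 12.

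The next 5 genes in the ranking were below 2-fold: Cd9 (a tetraspanin) and Ctsz (a lysosomal protease) at 1.97, Nid2 (nidogen 2, a basement membrane protein) at 1.93, Ptx3 (a secreted pentraxin) at 1.81 and Gpc3 (a cell-surface heparan sulfate proteoglycan) at 1.76. Ctsz was higher in members in all 16 tiles and Ptx3 in 11.

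**Figure D2:**
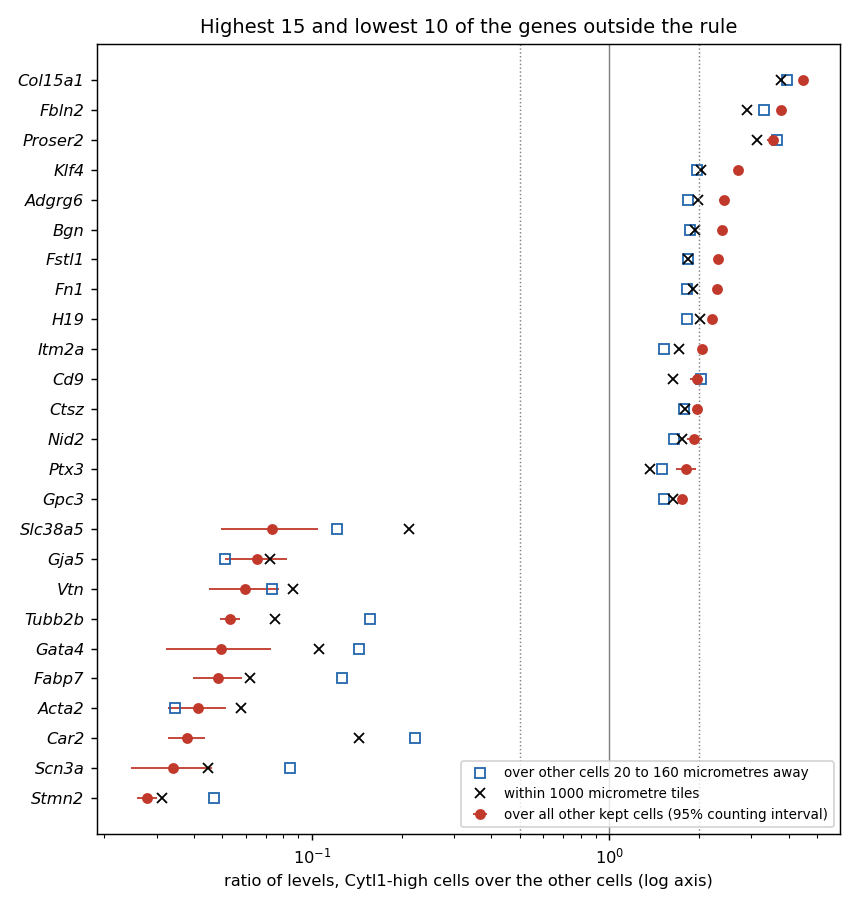
Ratio of the level in Cytl1-high cells to the level in comparison cells for the 15 genes with the highest and the 10 with the lowest ratio, on a log axis; levels are counts per 10000 counts of the 287 genes outside the rule, red points are against all other kept cells with exact Poisson intervals, blue squares against other cells 20 to 160 micrometres from a member, and crosses within tiles of 1000 micrometres; dotted lines mark ratios of 0.5 and 2. Col15a1, Fbln2 and Proser2 lie past 2-fold on all 3 measures, and the 10 lowest genes lie under 0.5 on all 3.

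Against cells from the same places fewer genes were past 2-fold. Compared with other cells of the same tile, summed by the Mantel-Haenszel ratio, 5 genes stayed at least 2-fold higher: Col15a1 at 3.78, Proser2 at 3.12, Fbln2 at 2.91, Klf4 at 2.03 and H19 at 2.02. Against the cells lying 20 to 160 micrometres from a member, 4 genes were at least 2-fold higher: Col15a1 at 3.94, Proser2 at 3.65 and Fbln2 at 3.32, which are among the 10, and Cd9 at 2.03, which is not. Bgn was then 1.87-fold higher, Fn1 1.82-fold and Itm2a 1.53-fold. Both comparisons were added after seeing the data.

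Other connective populations were set beside the members, each under the same endothelial limit. The Dcn cells were 18461 other cells with at least 3 counts of Dcn, decorin, a proteoglycan of fibroblasts. The Prrx cells were 1317 other cells with at least 3 counts of Prrx1 plus Prrx2, homeobox genes of limb and facial mesenchyme. These sets shared 346 cells, and how alike each was to the members was not measured. Col15a1 had 85.8 per 10000 in members, 14.8 in the Dcn cells and 7.87 in the Prrx cells, 5.79-fold and 10.9-fold higher. Proser2 was 4.35-fold and 5.31-fold higher in members. Fbln2 was 2.14-fold higher than in the Dcn cells and 1.37-fold higher than in the Prrx cells. Klf4 was 1.89-fold higher than in the Dcn cells and stood at 0.89 of its level in the Prrx cells, and Bgn was at 1.68 and 0.98. Klf4 and Bgn were thus higher in members than in the section as a whole, but not higher than in the Prrx cells.

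P4ha3, a gene of the rule, had 169 per 10000 in members, 25.7 in the Dcn cells, 83.1 in the Prrx cells and 26.7 in all other cells. Cytl1 had 228, 3.04, 3.74 and 4.98 in the same order.

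The other matrix genes did not move as a group. Of 16 listed matrix genes outside the rule, 3 were at least 2-fold higher (Col15a1, Fbln2 and Bgn), beside 3.48% of all genes. A further 6 were at least 2-fold lower, beside 41.8%, and the median ratio was 0.68 beside 0.58 over all genes. The 6 were Spock2 at 0.16, Igfbp3 at 0.17, Col18a1 at 0.18, Dcn at 0.40, Col4a1 at 0.41 and Lox, which crosslinks collagen and elastin, at 0.49. Dcn had 44.1 per 10000 in members and 110 in other cells. Col1a2, a chain of type I collagen, had 66.9 in members and 92.3 in other cells. Eln, elastin, stood at 1.02, and Fibin, a secreted protein, at 1.64. Summed, these 16 genes made up 870 per 10000 in members and 892 in other cells. The list did not hold Fn1, at 589 in members and 257 in other cells, or Nid2, 1.93-fold higher. The sum therefore does not cover all matrix genes of the panel.

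Genes of perichondrium and bone gave 0 higher and 2 lower of 3 outside the rule, too few to read against the 3.48% higher and 41.8% lower of all genes. Dkk2, a secreted modulator of Wnt signalling, stood at 0.25, Sfrp2, another Wnt modulator, at 0.23 and Col1a2 at 0.72. Of 5 mesenchyme genes 0 were at least 2-fold higher and 1, Dcn, at least 2-fold lower, while Prrx1 stood at 1.32 and Prrx2 at 0.86. Of the secreted signals and patterning genes, 10 of 10 were at least 2-fold lower, beside 41.8% of all genes, with a median of 0.22, among them Wnt4 at 0.20, Crabp1 at 0.26 and Foxf1 at 0.27. Some of the 10 were near the blank codes in members, where the size of a ratio says little. Wnt4 had 3.10 per 10000 in members with Mgp and 2.49 in those without, under the highest blank code, 3.28 and 3.13. Gata4, at 0.349 and 0.307, was under the mean blank code, 1.11 and 1.15. Hoxa5, a homeobox gene of the neck and upper trunk, stood at 0.45, with 8.84 per 10000 over all members and 19.9 in other cells, though 6 of the 17 patches described below were above the level in other cells.

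Of 5 imprinted genes, 1 (H19) was at least 2-fold higher, beside 3.48% of all genes, and 0 were at least 2-fold lower. Their median was 1.70, and 4 of the 5 were above 1, beside 54 of all 287 genes. Cdkn1c, an inhibitor of the cell cycle, had 582 per 10000 in members and 339 in other cells, 1.72-fold. Asb4 was at 1.70, Dlk1, a transmembrane protein of the Notch ligand family, at 1.30 and Gnas at 0.83. Summed over the 5, they made up 4375 per 10000 in members and 2490 in other cells, most of it H19.

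Proliferation genes gave 0 higher and 1 lower of 12, beside 3.48% higher and 41.8% lower of all genes. Their median was 0.68, beside 0.58 over all genes, so as a group they were not lower than a typical gene. Top2a, a DNA topoisomerase of dividing cells, had 65.0 in members and 96.4 in other cells, a ratio of 0.67, while Cdk1 was at 1.13. Of 4 genes of cell cycle exit, 1 was at least 2-fold lower (Btg2 at 0.32), beside 41.8% of all genes. Cdkn1a was at 0.52 and Cdkn1c at 1.72. Summed, the 4 made up 629 per 10000 in members and 425 in other cells, most of it Cdkn1c. Of 5 genes of low oxygen and angiogenic signals, 2 were at least 2-fold lower, Cxcl12 at 0.26 and Epas1, a hypoxia-inducible factor, at 0.34, a share near the 41.8% of all genes. Slc2a1, a glucose transporter, was at 0.80, Vegfc, a growth factor of lymphatic vessels, at 0.52 and Bnip3 at 1.07.

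Most markers of other cell types were low in members. Neuronal and glial genes were at least 2-fold lower for 8 of 9 and summed to 61.5 per 10000 in members, against 734 in other cells. Mural genes were lower for 6 of 9, with 20.7 against 98.1, and macrophage genes for 5 of 6, with 10.3 against 35.7, beside 41.8% of all genes. Of the 9 mural genes 2 were above 1 in members, the highest at 1.18. Endothelial genes outside the rule were lower for 2 of 4, near that share, with 5.96 against 16.4, and the endothelial limit, which members had to meet and other cells did not, bears on these levels. Both erythroid genes and Spint2, the 1 epithelial gene counted, were lower. None of these markers was at 0 in members. The mean blank code stood at 1.13 per 10000 in members and the highest at 3.21.

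The 10 lowest ratios were those of Stmn2 at 0.028, Scn3a at 0.034, Car2 at 0.038, Acta2 at 0.041, Fabp7 at 0.048, Gata4 at 0.050, Tubb2b at 0.053, Vtn at 0.060, Gja5 at 0.065 and Slc38a5 at 0.073. Stmn2, Scn3a, Fabp7 and Tubb2b are neuronal or glial, Acta2 is smooth muscle actin, and Car2 is an enzyme of red blood cells. Acta2 had 1.02 per 10000 in members, under the mean blank code, against 24.6 in other cells. In all, 39 of the 120 lower genes were under the mean blank code in members, where the size of a ratio says little.

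The leading genes outside the rule differed in how they ran with the Cytl1 count. Being high at 2 or more counts is what placed them among the leading genes, so the steps within that range are the ones to read. Over cells under the endothelial limit with 0, 1, 2, 3, 4 to 5, 6 to 9 and at least 10 Cytl1 counts, Fbln2 had 39.4, 72.4, 120, 145, 151, 187 and 231 per 10000. Col15a1 had 13.8, 36.9, 70.5, 79.5, 92.2, 92.1 and 98.9. Fbln2 was higher at each step, while Col15a1 levelled off past 4 counts. H19 had 1329, 2257, 3021, 3187, 3098, 2872 and 2465, highest at 3 Cytl1 counts and lower beyond. From 2 counts up, Bgn had 78.0, 76.0, 76.7, 68.9 and 75.5, with no order, and Adgrg6 46.5, 44.5, 49.3, 41.2 and 22.2, lowest at the top. Median counts per cell were 72, 131, 152, 167, 187, 213 and 255 over the same steps, so depth moved with the Cytl1 count, and its part in these trends was not tested. The steps also pool unlike patches. Of the 17 patches, patch 1 had the highest Cytl1 mean, 5.11 per member, the highest Fbln2, 249, and the lowest H19, 2201. The part of the patch mix in these trends was not tested either.

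**Figure D3:**
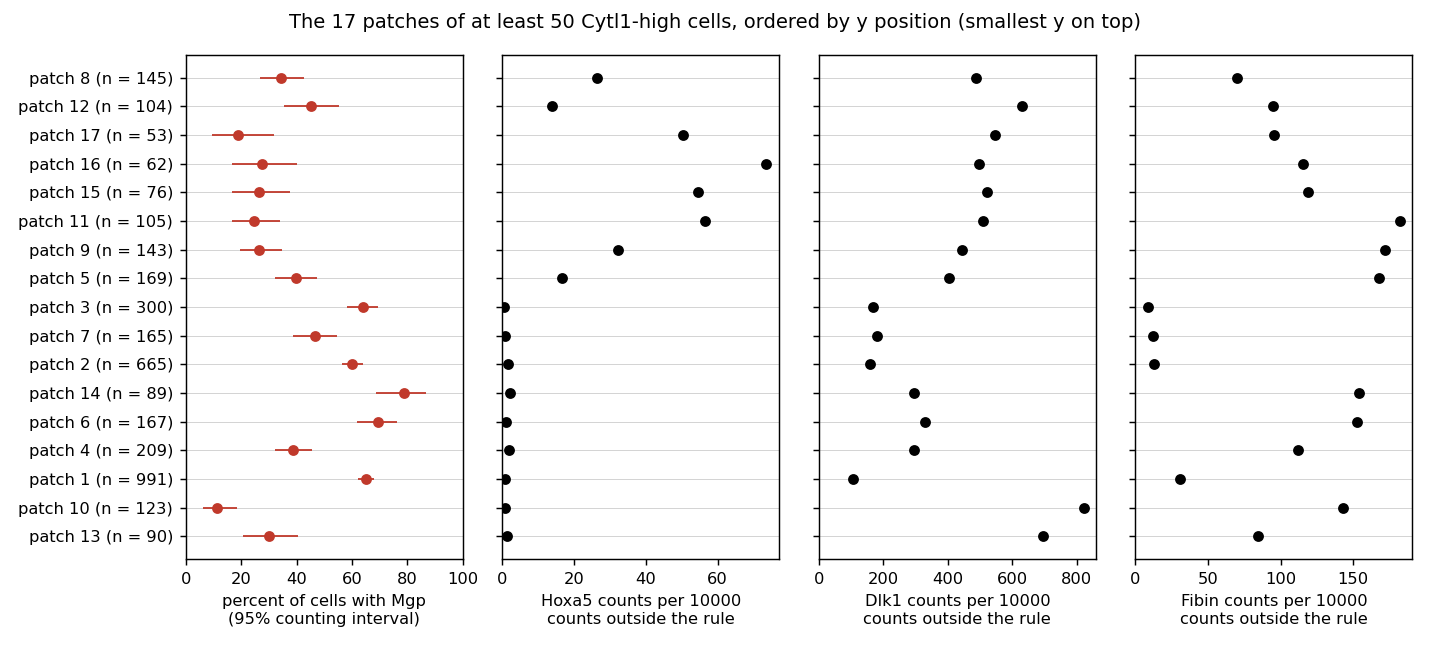
Values in the 17 patches of at least 50 Cytl1-high cells, ordered by position from top to bottom of the section, with the share of members that have Mgp (percent, with Clopper-Pearson intervals) and the levels of Hoxa5, Dlk1 and Fibin in counts per 10000 counts of the 287 genes outside the rule. Hoxa5 lies between 13.7 and 73.5 in 8 patches and between 0.521 and 2.11 in the other 9.

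The 17 patches were not alike. Hoxa5 was between 13.7 and 73.5 per 10000 in 8 patches with 857 members, centred at y positions of 276 to 4555 micrometres, and between 0.521 and 2.11 in the other 9, with 2799 members, at 4694 to 6167 micrometres. The ranges did not overlap, and neither did the positions. The split at 10 per 10000 was chosen after seeing the values.

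Other genes ranged widely over the patches without such a gap. Dlk1 ran between 105 in patch 1 and 823 in patch 10, with a median of 444. Dcn ran between 3.05 in patch 8 and 169 in patch 14, and Fibin between 8.86 in patch 3 and 182 in patch 11. Fn1 ran between 157 in patch 12 and 1242 in patch 7. H19, between 2201 in patch 1 and 4213 in patch 12, and Itm2a, between 155 and 524, varied less in proportion. Col15a1 ran between 25.2 in patch 4 and 190 in patch 12, so the gene with the highest ratio overall was in patch 4 not far above its level in other cells, 19.1. Fbln2 ran between 56.0 in patch 9 and 249 in patch 1, above its level in other cells in all 17.

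The share of members with Mgp differed between patches as well. It was 11.4% in patch 10 (interval 6.36% to 18.4%) and 78.7% in patch 14 (68.7% to 86.6%), with a median of 38.8% over the 17. The median was 27.0% over the 8 patches with high Hoxa5 and 60.2% over the other 9, but the ranges overlapped, 18.9% to 45.2% and 11.4% to 78.7%. Median depth was 201 counts per member in patch 10 and 212 in patch 14.

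Members with and without Mgp lay among each other, yet Mgp ran in neighbourhoods. The nearest other member had Mgp for 60.4% of members with Mgp (58.3% to 62.5%) and for 40.9% of members without it (38.7% to 43.0%). Within the 17 patches the values were 59.3% and 40.6%, beside an Mgp share of their own patches of 57.2% and 46.1%. The patch shares thus differed in the same direction as the neighbours, by less.

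The 2218 members with Mgp differed from the 2044 without it in 13 of the 185 genes with enough counts: 9 were at least 1.5-fold higher (4.86%) and 4 at least 1.5-fold lower (2.16%). Median depth was 195 and 174 counts. Cytl1 averaged 4.53 and 3.88 counts per cell and P4ha3 3.37 and 2.85, but members without Mgp had to reach 4 counts with the other genes of the rule, which bears on these averages.

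Dkk2 was 2.91-fold higher in members with Mgp (2.23 to 3.85), with 5.78 and 1.98 per 10000. Dcn was 1.85-fold higher (1.72 to 1.99), with 55.8 and 30.1. Maf, a leucine-zipper transcription factor, was 1.81-fold higher, with 35.5 and 19.6. Chst1, a sulfotransferase of keratan sulfate chains, was at 1.77, Pltp, a phospholipid transfer protein, at 1.76, Foxf1, a forkhead factor, at 1.72, Stra6, a receptor for retinol-binding protein, at 1.65, and Cdkn1a, an inhibitor of the cell cycle, at 1.57. In members without Mgp the mean blank code was at 1.15 per 10000 and the highest at 3.13. Dkk2, Foxf1 at 2.65 and Stra6 at 2.21 lay under that highest code. With the mean blank code subtracted, their ratios were 5.59, 2.29 and 2.38, so the size of these 3 ratios is uncertain.

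Compared within the 17 patches, Dkk2 stood at 2.44, Maf at 1.75, Chst1 at 1.64 and Pltp at 1.62, while Dcn was at 1.49, Cdkn1a at 1.27, Foxf1 at 1.26 and Stra6 at 1.12. Chst1 was higher in members with Mgp in 15 of 17 patches, Dcn and Maf in 14, and Dkk2 in 10. Without patch 1, which held 991 members, Dkk2 was at 2.02 and Maf at 1.49, so both were smaller and Maf was no longer past 1.5-fold, while Stra6 was at 2.09 and Foxf1 at 2.06, both larger.

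The 4 genes lower in members with Mgp were Hoxa5 at 0.37, Reln (reelin, a secreted matrix protein) at 0.57, Mrc1 (a mannose receptor of macrophages) at 0.62 and Fibin at 0.64. Dlk1 was at 0.67, Asb4 at 0.72, Arhgap18 at 0.74 and Jag1, a Notch ligand, at 0.75. Within patches Hoxa5 was at 0.81, Reln at 0.91, Fibin at 0.87 and Dlk1 at 0.97, and Mrc1 was at 0.59, though with 0.5 counts added in each patch it came out higher in members with Mgp in 11 of 17 patches. Mrc1 rests on 97 counts in members with Mgp and 130 in those without, and was at 0.87 without patch 1. Hoxa5 and Dlk1 thus lay nearer to 1 when patches were compared with themselves.

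Inside the patches, members were ordered by their distance to the nearest cell outside, taken as a non-member with at most 2 members among its 20 nearest cells, a definition made after seeing the data. Under 15, 15 to 30 and at least 30 micrometres from it lay 308, 1308 and 2040 members. Patches 4 to 17 supplied 223, 742 and 735 of these, so the steps pool different mixes of patches. Bgn had 120, 96.6 and 57.2 per 10000 over these steps. Col1a2 had 123 in the first step and 50.7 in the last. Fbln2 ran the other way when pooled, with 114, 137 and 193, but had 102, 107 and 115 in patches 4 to 17, 138, 217 and 272 in patch 1, and 168, 141 and 207 in patches 2 and 3. Fn1 had 386, 502 and 649 pooled, but 428, 509 and 452 in patch 1. Lox had 25.5, 17.3 and 11.5 pooled, but 16.5, 26.4 and 20.4 in patches 2 and 3. Pooled, Maf had 34.0, 44.2 and 16.6, Adgrg6 43.6, 56.0 and 25.6, and Dkk2 5.70, 5.85 and 1.93, all lowest in the deepest step. In patches 2 and 3 Adgrg6 had 14.2, 53.2 and 26.7, lowest in the outer step. The share with Mgp was 42.2%, 51.7% and 53.5% pooled, 66.7%, 76.0% and 59.8% in patch 1, and 35.9%, 38.5% and 40% in patches 4 to 17, so it had no common order.

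The outer-to-inner order of Bgn was seen in patch 1, with 125, 105 and 50.8, in patches 2 and 3 together, with 82.6, 80.5 and 57.6, and in the remaining 14, with 123, 99.1 and 62.2. Maf had 82.7, 92.9 and 23.7 in patch 1, 21.2, 58.3 and 16.5 in patches 2 and 3, and 23.7, 22.4 and 10.8 in the remaining 14. The outer step of patches 2 and 3 holds 28 members. Median depth was 174.5, 173 and 195 counts over the 3 steps of all patches together, and its part was not tested.

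**Figure D4:**
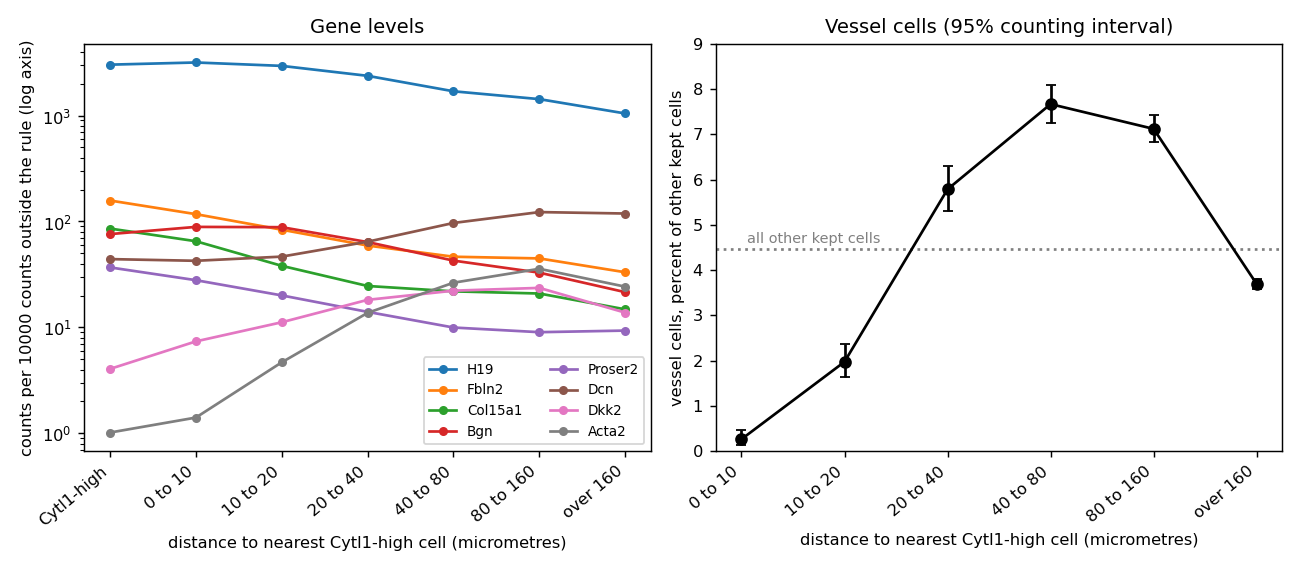
Levels of 8 genes in counts per 10000 counts of the 287 genes outside the rule (log axis), and the share of vessel cells (percent, with Clopper-Pearson intervals), in other kept cells grouped by distance to the nearest Cytl1-high cell (0 to 10, 10 to 20, 20 to 40, 40 to 80, 80 to 160 and over 160 micrometres); the first point of the gene panel is Cytl1-high cells themselves. Vessel cells make up 0.262% of other cells within 10 micrometres and 7.67% at 40 to 80 micrometres.

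Other cells next to members resembled them in part. In other cells at 0 to 10, 10 to 20, 20 to 40, 40 to 80, 80 to 160 and over 160 micrometres from the nearest member, Cytl1 had 55.7, 25.7, 10.2, 4.82, 3.03 and 1.88 per 10000, beside 228 in members. Bgn had 88.9, 88.4, 63.9, 42.7, 32.9 and 21.5, beside 76.0 in members, so it was higher in the cells bordering the members than in the members. Col15a1 had 65.1, 38.1, 24.6, 21.9, 20.9 and 14.8, beside 85.8. Acta2 had 1.41 within 10 micrometres and 35.8 at 80 to 160, and Dcn 42.5 and 123, beside 1.02 and 44.1 in members. The nearest ring includes cells that missed the rule by a count.

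Vessel cells were scarce beside members. A vessel cell was taken as a kept cell with at least 4 counts over the 5 endothelial genes from at least 2 of them, which gave 8565 cells. They made up 0.262% of other cells within 10 micrometres of a member (12 of 4577), then 1.97%, 5.79%, 7.67% and 7.12% in the following rings and 3.69% beyond 160 micrometres, beside 4.47% of all other cells. Since members cannot be vessel cells, the distance comparison below used other cells under the same endothelial limit.

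**Figure D5:**
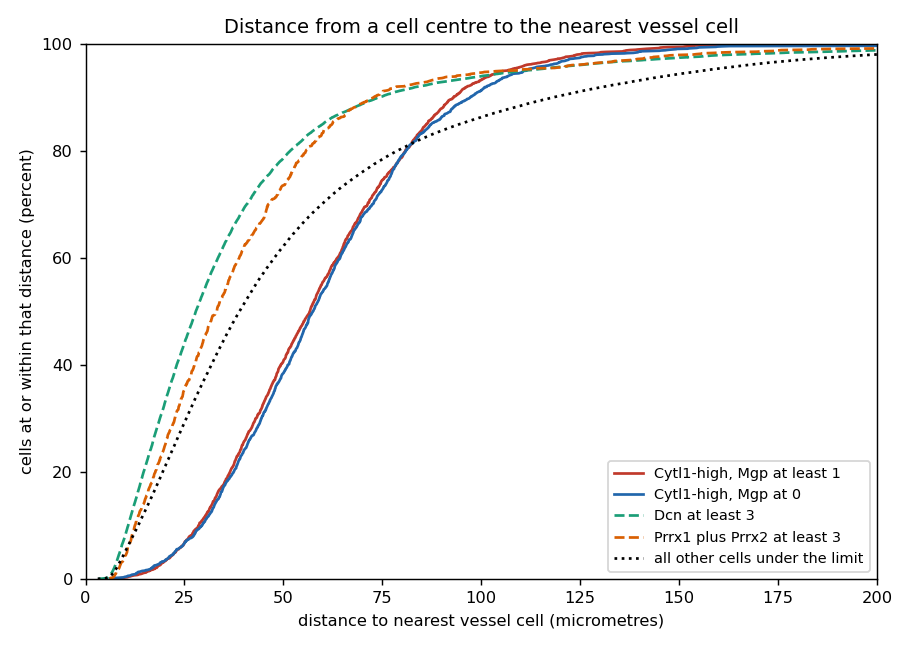
Cumulative share of cells (percent) by distance to the nearest vessel cell, in micrometres up to 200, for Cytl1-high cells with and without Mgp, for Dcn and Prrx cells and for all other cells under the same endothelial limit. Within 20 micrometres of a vessel cell lie 3.28% of all Cytl1-high cells and 20.8% of other cells, and within 100 micrometres 92.3% and 86.3%.

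The median distance to the nearest vessel cell was 57.0 micrometres for members (interval 56.0 to 58.0) and 38.9 for the other 168645 cells under the limit (38.7 to 39.1), a difference of 18.1. It was 27.9 for the Dcn cells, 33.2 for the Prrx cells and 28.4 for other cells 20 to 160 micrometres from a member. Within 20 micrometres of a vessel cell lay 3.28% of members (2.77% to 3.86%), against 20.8% of other cells, and within 50 micrometres 39.6%, against 62.2%. Within 20 micrometres the Dcn, Prrx and nearby cells had 32.8%, 24.8% and 31.6%. Within 100 micrometres lay 92.3% of members, against 94.0% of the Dcn cells, 94.6% of the Prrx cells, 95.8% of the nearby cells and 86.3% of all other cells, so the order turned against all other cells alone. The highest distance was 260 micrometres among members and 462 among other cells. Members thus had fewer cells close to a vessel cell than each of these groups, while more of them lay beyond 100 micrometres than of the Dcn, Prrx and nearby cells and fewer than of all other cells.

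The distance depends on what counts as a vessel cell. The difference in medians was 15.4 micrometres when a vessel cell needed 6 endothelial counts and 5.85 when it needed 2. All distances are in the plane of the section and leave out vessels above and below it.

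Members with Mgp and members without it differed by less than their intervals, with medians of 56.7 micrometres (55.0 to 57.8) and 57.5 (56.2 to 59.0). Patch medians ran between 35.5 micrometres in patch 15 and 71.2 in patch 12. The 421 members with 0 to 2 members among their 20 nearest cells had a median of 46.6. Of the row of small discs, patches 9, 11, 15 and 16 had medians of 43.6, 42.0, 35.5 and 39.3, and patch 17 had 56.5, close to the 57.0 over all members.

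Some cells that were not members were enclosed by members. Non-members with members in all 8 directions within 150 micrometres and none within 20 numbered 676, a definition made after seeing the map. It does not ask that the surrounding members belong to 1 patch. Of these 8 were vessel cells (1.18%, interval 0.512% to 2.32%). The 7 groups of at least 20 such cells held 544, of which 4 were vessel cells, all in 1 group of 22 cells; with 21 to 153 cells each, the upper ends of the intervals of the other 6 run between 2.38% and 16.1%. H19 stood between 3246 and 5241 per 10000 in those 6 and at 1970 in the group of 22, beside 3026 in members and 1363 in other cells. Cytl1 stood between 7.82 and 62.4 in the 7 groups, under the 228 of members and over the 4.98 of other cells.

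Over all 676 enclosed cells, Dlk1 had 503 per 10000, beside 278 in members, and Dcn 41.7, beside 44.1. These pool unlike groups: over the 7 groups Dlk1 ran between 183 and 910, and Dcn between 7.54 and 106. Cthrc1 had 47.4, beside 88.7 in members and 14.8 in other cells, and P4ha3 82.0, beside 169 and 26.7. The enclosed cells had a median depth of 100.5 counts, against 185 in members, and lay a median of 96.7 micrometres from the nearest vessel cell, against 57.0 for members.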

How the data were processed

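Whole numbers of decoded molecules per segmented cell were deposited by the authors as counts, for 296 panel genes and 19 blank codes. A further deposited table gives, per the file headers, each cell's centre, its volume (a signal that is never negative) and the summed DAPI and PolyT intensity, which entered no comparison. Positions carry no unit and were read as micrometres. The submitters' processing notes name Scanpy and Seurat, with no role, and how cells were segmented is not given in the sources used here.

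Cells with fewer than 10 counts and blank codes were left out of levels. Summed counts were compared per 10000 counts of the 287 genes outside the rule, for genes with at least 200 counts over both groups together and 20 expected in the first, with exact conditional intervals at 95%. No test was made and no doublet caller run. Members, gene lists and thresholds were chosen with earlier results of these data known. Named genes are the 9 of the rule, the 15 highest and 10 lowest ratios, the 8 highest and 8 lowest for Mgp, and examples from the lists; Cdkn1a was added as a further call, and 1 gene of the Mgp contrast is not reported here. Scripts were tested on simulated data. Python 3.11.15, numpy 2.4.6, pandas 2.3.3, scipy 1.17.1 and matplotlib 3.10.9 were used.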

Additional observations from a re-analysis of the deposited data

How the results depend on the processing

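No paired analysis was possible because the results come from no test and E15.5 has 1 section; for the same reason no replicate could be left out. The share of Cytl1-high cells, 2.18%, was 2.38% among cells with at least 20 counts, 3.11% with at least 50, 1.49% at Cytl1 of at least 3, 2.27% with no endothelial limit and 1.96% with at least 3 members among 20 neighbours. The vessel distance difference, 18.1 micrometres, was 19.4 with at least 20 counts, 22.7 with at least 50 and 19.3 with no endothelial limit. It was 5.85 and 15.4 with vessel cells at 2 and 6 endothelial counts, 19.7 against all other cells that are not vessel cells, 28.6 against cells 20 to 160 micrometres from a member and 16.8 without the largest patch. The 10 genes at least 2-fold higher became 25 per cell volume, 17 with the mean blank code subtracted, 19 with H19 left out of the total, 4 against nearby cells and 5 within tiles, and the 120 lower genes 84, 128 and 97 under the first 3 of these. The median of all genes shifted by 0.56 (log2) per volume and 0.31 without H19. The Mgp share, 52.0%, was 22.4% after thinning to 50 counts and 48.1% without the largest patch. Of the Mgp contrast, the 9 higher genes became 14 at Mgp of at least 2 and 4 within patches, and the 4 lower became 1 within patches. In the depth range, cells with 100 to 250 counts, 10 genes were at least 2-fold higher in members and 111 at least 2-fold lower. Col15a1 was then at 4.50, Fbln2 at 3.38 and Proser2 at 3.84, while Itm2a fell under 2-fold at 1.94 and Cd9 passed it at 2.16. The nearby cells, tiles, patches, largest patch, depth range and H19 settings were added after seeing the data. The 25 genes named for members kept their direction in all 350 values over 14 alternatives, and the 16 named for Mgp in all 208 over 13. These genes were named for the most extreme ratios in the same counts, so a change of direction was unlikely from the start. Limits are 1 section of 1 embryo, a panel with no other cartilage gene, members deeper than other cells, and 39 of the 120 lower genes under the mean blank code.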
